A study of Mus musculus with 7 samples.

Results

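The genes described here are 37 protein-coding genes of the DNA damage response and of DNA repair, out of 21938 protein-coding genes in the GENCODE M21 annotation of mouse build GRCm38 (mm10). They were taken by name from a list of sensors, mediators and repair factors, and all 37 were found in the annotation. Muscle stem cells (MuSCs) gave 7 libraries. The general protocol of the study sorts MuSCs as CD45-/CD31-/CD11b-/Sca1- and α7-integrin+ cells that also carry VCAM or CD34. CUT&Tag, in which an antibody directs a transposase to the sites its target occupies, was run with an antibody to the telomere protein TRF2 in 2 libraries and with rabbit IgG in 1 library. According to the labels these cells came from tibialis anterior muscle 3 days after injection of the muscle toxin notexin, whereas the methods of the study name a shorter time and add the gastrocnemius, and they give the mice as Pax7 gCre/gCre;TdTomato fl/fl controls. For the isolation of the CUT&Tag cells the methods cite a separate published protocol. ATAC-seq, in which a transposase cuts accessible chromatin, was run on hind limb MuSCs at 0 hours, with 2 Control and 2 TRF2KO libraries. TRF2KO stands for TRF2-floxed mice crossed with Pax7CreERT2 mice and given tamoxifen, so that Terf2, the gene of TRF2, is deleted in cells that express Pax7. The genotype field of both TRF2KO libraries reads Wildtype, so the groups were taken from the library titles, and the alleles of the ATAC Control mice, and the ages of all mice, are not given in the labels. The TRF2 peaks and the ATAC peaks therefore come from different cells, injured in one assay and not in the other. No source used here ties a library to its own animal, so the tests below measure the spread between libraries, which may be technical.

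Broken or unreplicated DNA is recognized by the kinases ATM, ATR and DNA-PKcs with their partner proteins, which pass the signal to the checkpoint kinases CHEK1 and CHEK2. Around a break, MDC1, the ubiquitin ligases RNF8 and RNF168, and 53BP1 build a chromatin platform, and the ends are joined directly or, after a sister chromatid is available, copied from it by the BRCA proteins. Damage to bases or to 1 strand is handled by the PARP and XRCC1 proteins, by nucleotide excision and by mismatch repair. At chromosome ends TRF2 is known for keeping ATM signalling and end joining away from telomeres, which is why these genes are of interest in cells that lack it. The comparisons below concern the promoters of the genes that encode these proteins, and hold no measure of damage, of telomeres or of RNA.

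A promoter peak was defined as a MACS peak that overlapped the 1 kb on either side of any annotated transcript start of the gene. Where several did, the one with the highest fold was used. The fold is the height of the peak at its summit over the background of its own library, with 1 added to each. The percentile rank places that fold among all peaks of the same library, with 100 at the top. The ATAC lists held 89160 and 100521 peaks for Control and 84776 and 84102 for TRF2KO, the TRF2 lists 12290 and 15479, and the IgG list 656. ATAC signal at these genes was deep, with 66 to 773 fragments at the summits of the 37 promoter peaks, whereas the TRF2 peaks rested on 5 to 18 fragments. Terf2 itself checked the labels: its promoter peak had folds of 54.3 and 48.4 in Control and 21.5 and 18.6 in TRF2KO, a difference of -1.45 ± 0.11 on the log2 scale (SE; limma, Benjamini-Hochberg adjusted p = 1.43e-05). All 12 MuSC markers examined, Pax7 among them, had a promoter peak in the 4 ATAC libraries. So did 1 of 5 immune, 3 of 5 endothelial, 2 of 5 fibro-adipogenic and 3 of 5 myofibre markers. The other 3 fibro-adipogenic and 2 myofibre markers had a peak in some libraries. The fibro-adipogenic markers Pdgfra and Dpt had ranks of 87.8 to 90.0 and 79.9 to 98.2, beside 88.0 to 91.5 for Pax7. The part of these other cell types in the results below was not tested.

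The promoters of 3 genes show the range of what was found. Atm, the kinase that responds to double-strand breaks, and Mdc1, the platform that binds phosphorylated histone H2AX beside a break, are shown because they had highly accessible promoters with TRF2 peaks in both libraries. Brca2, which serves the copying of a sister chromatid in homologous recombination, is shown because it had an open promoter without a TRF2 peak. The stretches are the 200 bases before the start of each gene in GRCm38, written 5′ to 3′ along the gene, and the capitals mark the motifs that the search described further on found. They lie at chr9:53536741-53536940 (minus strand) for Atm, chr17:35841315-35841514 (plus strand) for Mdc1 and chr5:150522430-150522629 (plus strand) for Brca2, and overlap no exon of a coding gene.
Atm: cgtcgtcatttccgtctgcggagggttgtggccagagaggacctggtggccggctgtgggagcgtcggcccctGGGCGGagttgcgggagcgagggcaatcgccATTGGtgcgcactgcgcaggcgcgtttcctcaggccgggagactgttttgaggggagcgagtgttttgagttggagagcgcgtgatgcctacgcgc
Mdc1: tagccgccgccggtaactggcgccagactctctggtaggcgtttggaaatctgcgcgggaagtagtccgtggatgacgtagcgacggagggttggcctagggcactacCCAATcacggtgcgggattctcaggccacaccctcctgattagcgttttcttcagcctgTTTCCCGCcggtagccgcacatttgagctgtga
Brca2: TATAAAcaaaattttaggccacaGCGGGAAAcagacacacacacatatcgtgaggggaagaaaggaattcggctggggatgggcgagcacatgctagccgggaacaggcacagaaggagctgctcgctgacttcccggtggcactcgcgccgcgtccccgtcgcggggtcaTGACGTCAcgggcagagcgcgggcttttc
In Atm the capitals are a GC box and an inverted CCAAT box, in Mdc1 a CCAAT box and an E2F word, and in Brca2 a TATA word, an E2F word and a CRE.

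All 37 genes had a promoter ATAC peak in each of the 4 libraries, against 64.6% of the 21938 coding genes (14180 genes). The 4 peaks of a gene overlapped each other in all 37. The GoPeaks regions of the authors covered 37 of these promoters in all 4 libraries, against 63% of coding genes. Their SEACR regions covered 35, against 51.8%, since Exo1 and Fancd2 had no SEACR region in Control replicate 2. The authors' consensus lists, 1 for each genotype, covered 35 promoters in either list and lacked Atrip and Topbp1. Median folds over the members were 60.5 and 54.5 in Control and 65.6 and 62.2 in TRF2KO, beside 49.0 and 43.6, and 51.7 and 47.2, over the coding genes with a peak in all 4 libraries. Median percentile ranks were 91.5, 92.8, 92.1 and 92.2 in the same order, beside 88.6, 90.2, 89.1 and 88.7. The medians of the members were thus somewhat higher than those of coding genes in every library. Their peaks were no wider, with a median of 1236 bp in Control replicate 1 against 1377 bp, and the summit lay within 100 bp of an annotated start in 27 to 30 of the 37 genes.

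Folds by role follow as deposited, without adjustment for the library, while ranks and centred values are compared afterwards. Among the 8 sensors and checkpoint kinases, accessibility spanned nearly the whole range of the members. Atm had folds of 171 and 136 in Control and 168 and 166 in TRF2KO, which placed it above the 99th percentile of peaks in every library. Chek2, the checkpoint kinase downstream of ATM, stood at 141 and 121 in Control and 143 and 131 in TRF2KO. Chek1, its counterpart downstream of ATR, had the lowest mean Control rank of all 37 genes, 78.1, with folds of 26.7 and 19.1 in Control and 22.2 and 20.9 in TRF2KO. For none of these 3 genes were the Control folds apart from the TRF2KO folds. Atr, the kinase that senses single-stranded DNA, Atrip, its partner, Topbp1, its activator, and Rad50 and Nbn, subunits of the complex that holds broken ends, had mean Control ranks between 87.1 and 95.8.

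The chromatin mediators differed among themselves as widely. Mdc1 had folds of 161 and 136 in Control and 162 and 159.8 in TRF2KO, next to Atm in the order. Trp53bp1, which encodes 53BP1 and directs breaks toward end joining, had 91.8 and 76.1 in Control and 85.3 and 84.9 in TRF2KO, with the TRF2KO values between the Control values. Rnf8, the ligase that starts histone ubiquitination at breaks, had 29.9 and 29.0 against 41.2 and 30.4, and Rif1, which acts with 53BP1 to limit the trimming of DNA ends, had 32.2 and 34.0 against 36.8 and 43.4. In both genes the genotypes overlapped by rank and once centred on the library medians. Rnf168, the ligase that extends the ubiquitin mark, had a mean Control rank of 89.4.

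The 5 end joining genes were uniformly accessible, with mean Control ranks of 90.3 to 98.4. They comprise Prkdc, the catalytic subunit of DNA-PK, Xrcc5 and Xrcc6, which encode the Ku ring, Lig4, the ligase that seals the ends, and Xrcc4, its scaffold. Prkdc had folds of 115 and 99.5 in Control and 129 and 125 in TRF2KO, so that the TRF2KO values were the higher ones, also once centred. The 7 genes of homologous recombination and of the repair helicases reached from the top of the list to near its bottom. Brca1, a ubiquitin ligase that promotes end resection, had the highest mean Control rank, 99.6, with folds of 175 and 139 in Control and 177 and 162 in TRF2KO. Brca2 had 31.5 and 33.8 in Control and 32.5 and 27.0 in TRF2KO, which overlap. Exo1, a nuclease that resects DNA ends, and Rad52, an annealing protein, had mean Control ranks of 79.0 and 79.6, just above that of Chek1.

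Of the 2 Fanconi anaemia genes, which serve the repair of crosslinks, Fanca had folds of 57.5 and 45.0 against 51.5 and 49.5, and Fancd2 had 31.3 and 29.7 against 32.7 and 26.8. The folds of the genotypes overlapped in both genes, whereas the ranks of Fanca were lower in both TRF2KO libraries. The 5 genes of single-strand break and base excision repair had mean Control ranks of 84.8 to 99.2, from Lig3 up to Parp2. The 4 nucleotide excision genes ranged from 84.2 for Xpa, a scaffold of the incision complex, to 96.2 for Ercc4, a subunit of the nuclease that cuts 5′ of the lesion. Ercc4 had folds of 94.4 and 77.7 in Control and 111 and 107 in TRF2KO, and Xpc, which finds the lesion, had 67.2 and 68.6 against 90.6 and 76.5. Msh6, the subunit of the mismatch sensor that reads base mismatches, had 60.5 and 58.5 in Control and 77.5 and 72.4 in TRF2KO. In these 3 genes both TRF2KO folds exceeded both Control folds, also once centred on the library medians, and the ranks of Xpc overlapped.

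**Figure D1:**
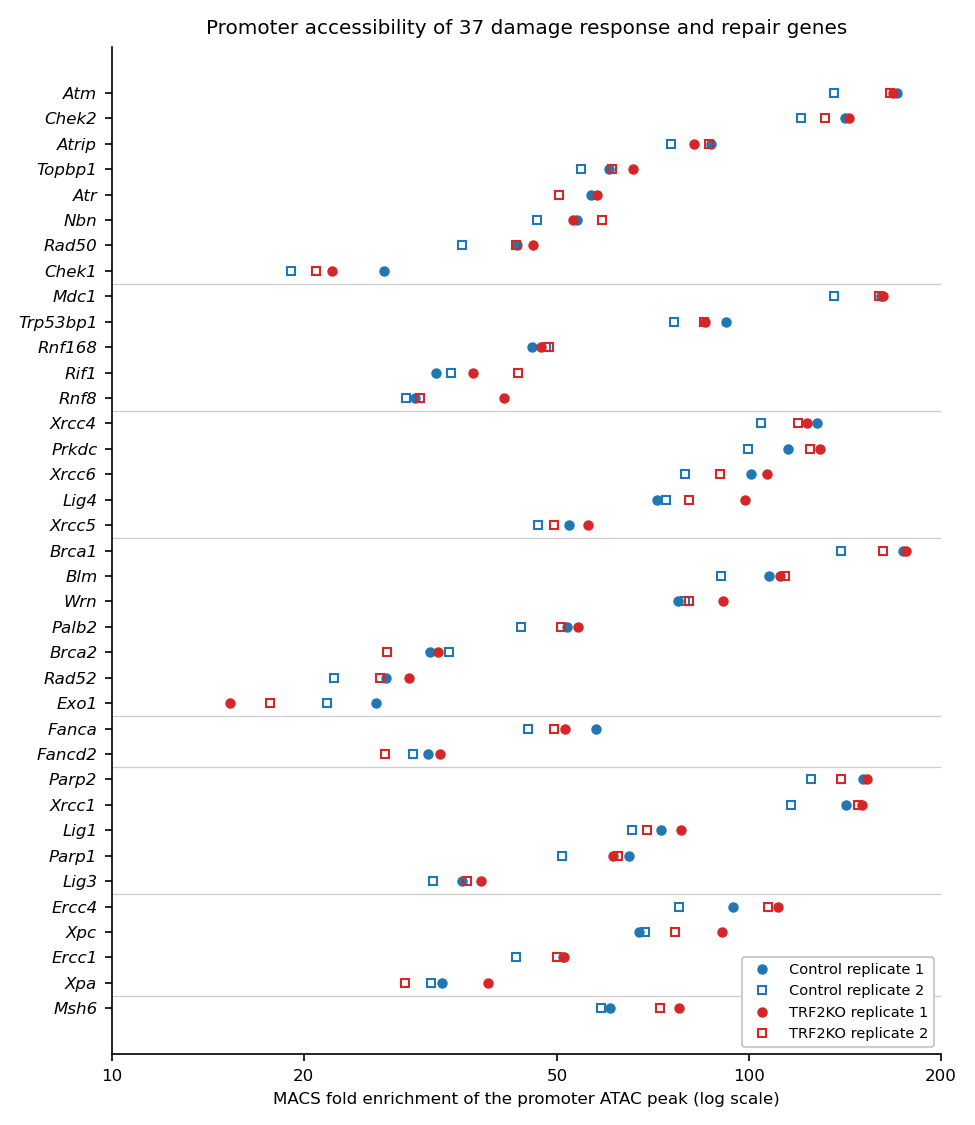
Fold enrichment of the promoter ATAC peak (horizontal axis, log scale) of the 37 genes, grouped by role on the vertical axis, with a point for each of 2 Control (blue) and 2 TRF2KO (red) libraries. The points of a gene sit close together compared with the distance between genes, from 15.3-fold at Exo1 to 177-fold at Brca1, and Exo1 has its red points to the left of its blue points.

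The comparison of genotypes asks whether promoter accessibility at these genes differs in MuSCs that lack TRF2. By rank, both TRF2KO values lay below both Control values in 10 of the 37 genes (27.0%), against 29.6% of the 14180 coding genes. They lay above in 3 genes (8.11%), against 9.06%. Both shares were near those of all coding genes, and the other 24 genes overlapped. The 10 were Atr, Atrip, Chek1, Chek2, Mdc1, Trp53bp1, Xrcc4, Exo1, Fanca and Parp2, and the 3 were Prkdc, Ercc4 and Msh6. Ranked among promoter peaks of coding genes in place of all peaks, 9 genes were lower and 5 higher, against 25% and 19.5% of coding genes. By log2 fold centred on the library medians, a comparison added after the data were seen, 4 genes were lower (Exo1, Brca2, Fancd2 and Atr), against 21.6% of coding genes, and 10 higher, against 25.3%. The split between lower and higher members thus turns with the scale. The mean ranks of the 2 genotypes followed each other closely over the 37 genes, with a Spearman correlation of 0.99, in which each point shares its promoter sequence between the genotypes. The largest fall in mean rank was that of Exo1, -9.14 percentile points, followed by Brca2 with -2.97, Chek1 with -2.47, Fancd2 with -1.95 and Fanca with -1.53. The largest rise was that of Rif1, 1.47 points, followed by Rnf8 with 1.45, Msh6 with 1.31, Ercc4 with 0.923 and Xpc with 0.921. Apart from Exo1, these shifts are small beside the span of the members, from the 78th to above the 99th percentile.

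On the log2 scale, with each library centred on the median of its coding genes, limma called 0 of the 37 genes lower in TRF2KO, against 1.17% of the 14180 coding genes (166 genes), and 0 higher, against 0.409% (58 genes). At an unadjusted p below 0.05 there was 1 gene on the lower side (2.70%), Exo1, against 7.81% of coding genes, and there were 5 on the higher side (13.5%), against 7.72%. The median difference over the members was 0.02, beside 0.01 over all coding genes. The single differences, each from the strongest window peak of its gene, ran from -0.63 to 0.25, with 15 below 0 and 22 above. Their median size was 0.0646, beside a median SE of 0.083, and over all coding genes these were 0.0994 and 0.0953. With the library centring left out, the median of all coding genes shifted by 0.109 and that of the members by 0.121, and with quantile normalization the median of the members was -0.0108, so its sign is not fixed. An exact permutation test of 1 gene in 2 against 2 libraries cannot reach p = 0.05, and the calls therefore rest on the spread that limma shares across genes. Weaker window peaks of the same genes were not tested. At an inner start of Blm such a peak had folds of 23.7 and 19.4 in Control and 40.3 and 32.9 in TRF2KO. The weaker peak of Xrcc1 was also higher in both TRF2KO libraries, while that of Ercc1 was lower in both.

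By its strongest window peak, Exo1 was the gene farthest from the rest. Its promoter peak had folds of 26.0 and 21.8 in Control and 15.3 and 17.7 in TRF2KO, from 112 and 120 fragments against 66 and 77, and ranks of 78.1 and 79.9 against 67.5 and 72.3. Both TRF2KO libraries were thus below both Control libraries on each of these scales. The difference was -0.63 ± 0.15 (SE, log2 scale) and missed the threshold with an adjusted p of 0.0619 (limma, Benjamini-Hochberg). Over 14 alternative settings the adjusted p by limma ran from 0.00107 to 0.278 and passed in 3 of them, and the difference stayed between -0.80 and -0.46. The 3 were a 3 kb window (0.0495), the fit with the replicate number as a block (0.0262) and the fit without TRF2KO replicate 2 (0.00107, limma). Among all coding genes 1.69% (239 of 14180) had a difference as low. In bulk libraries such as these, fewer cells with the promoter open and a less open promoter in each cell cannot be told apart. Exo1 has no start of another coding gene within 1 kb, and the 200 bases before it, at chr1:175880381-175880580 on the plus strand, carry a single searched motif, the ETS word in capitals.
Exo1: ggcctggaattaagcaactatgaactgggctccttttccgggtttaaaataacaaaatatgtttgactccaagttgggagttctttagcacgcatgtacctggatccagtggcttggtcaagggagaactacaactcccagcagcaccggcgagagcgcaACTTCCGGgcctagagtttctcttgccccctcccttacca

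On the higher side, the 5 genes with an unadjusted p below 0.05 in limma were Ercc4, Msh6, Xpc, Lig4 and Prkdc. Their differences were 0.25, 0.24, 0.20, 0.20 and 0.15 on the log2 scale, and their adjusted p-values by limma were 0.0988, 0.159, 0.271, 0.293 and 0.284. Lig4 had folds of 71.6 and 74.0 in Control and 98.6 and 80.6 in TRF2KO. Differences as high as that of Ercc4 were found in 4.82% of coding genes (683 of 14180). Atm differed by 0.04 (95% interval -0.11 to 0.19; limma adjusted p = 0.843) and Trp53bp1 by -0.07 (95% interval -0.23 to 0.09; limma adjusted p = 0.689). The study assayed the proteins of both genes, and both intervals include 0.

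**Figure D2:**
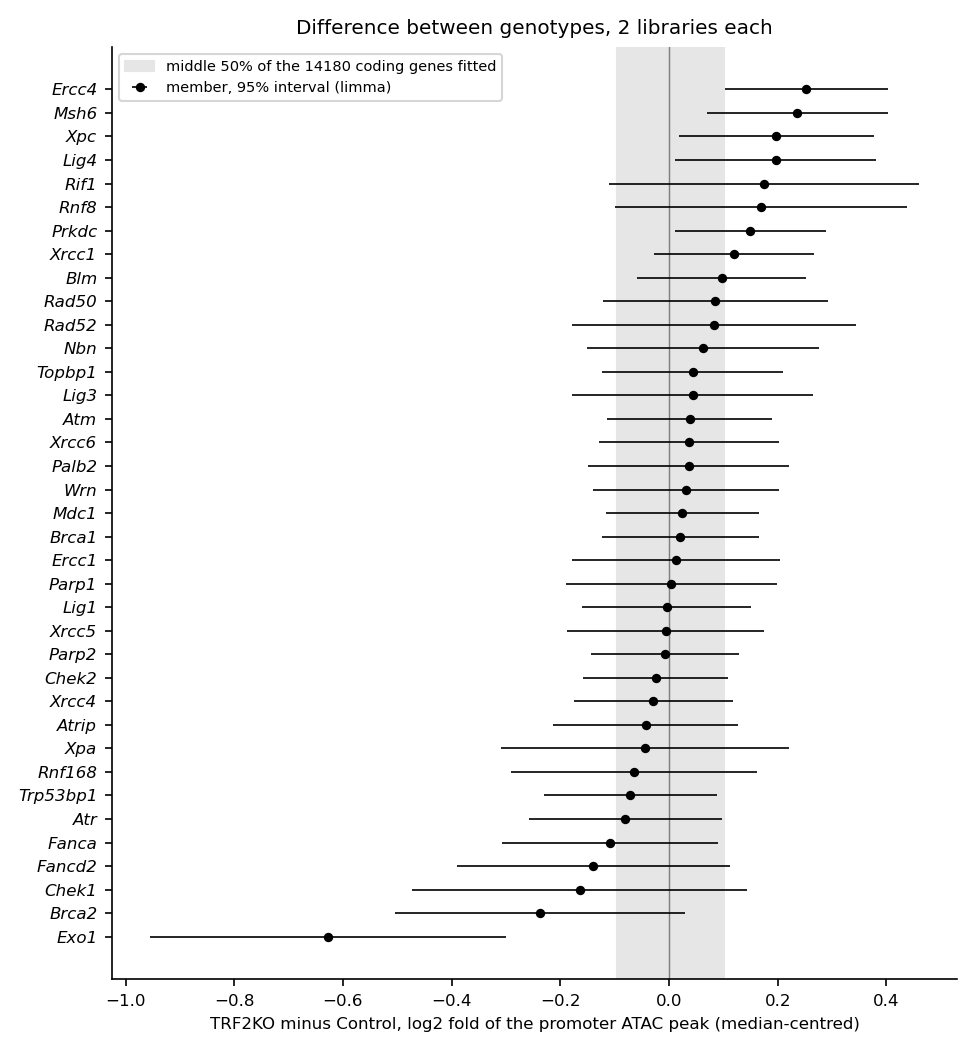
Difference between TRF2KO and Control in the log2 fold of the promoter ATAC peak (horizontal axis, libraries centred on their medians) for each of the 37 genes, ordered by the difference on the vertical axis. Points are limma estimates from 2 libraries in each genotype, bars their 95% intervals, and the grey band holds the middle 50% of the 14180 coding genes. Exo1 stands alone at -0.63, and most other genes lie in or near the band, with the highest at 0.25.

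TRF2 peaks were frequent at these promoters in injured MuSCs. Both TRF2 libraries had a promoter peak at 25 of the 37 genes (67.6%; exact 95% binomial interval 50.2 to 82.0%, which covers counting error only), against 25.1% of all coding genes. Of the 14180 coding genes with an open promoter throughout the ATAC libraries, 38.7% had them. At least 1 library had a peak at 30 genes (81.1%), against 40.9% of all coding genes. The IgG library had a peak at 0 of the 37, which by the rule of 3 counts allows a share of up to 8.11%, against 0.123% of coding genes. The members have a median of 8 annotated starts and coding genes 3, which gives the members more windows. With the outermost start alone, 22 of the 37 had TRF2 peaks in both libraries, against 22.5% of coding genes. With a -log10 q of at least 5 in both libraries, 15 of the 37 remained, against 13.8%.

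The 8 genes whose lower TRF2 fold was highest came from several roles. Prkdc had TRF2 folds of 9.29 and 8.19, Atm 9.48 and 8.02, and Lig1, the ligase that seals replicated and repaired DNA, 9.27 and 7.72. Mdc1 had 7.71 and 8.69, Xrcc6 7.59 and 9.30, and Brca1 7.48 and 8.77. Atrip had 7.21 and 7.45, and Xrcc1, the scaffold of single-strand break repair, 7.94 and 7.17. Which replicate was the higher one varied from gene to gene. For Trp53bp1 the TRF2 folds were 5.77 and 7.47. The other 16 genes with peaks in both libraries were Topbp1, Chek1, Chek2, Nbn, Rnf8, Xrcc4, Lig4, Palb2, Wrn, Fanca, Parp2, Ercc1, Ercc4, Xpa, Xpc and Msh6. Together with Trp53bp1 these 17 had folds of 4.65 to 7.84 in replicate 1 and 4.98 to 10.1 in replicate 2. Over the 25 genes the folds of the 2 libraries ranked the genes with little likeness (Spearman correlation 0.26), so the order among these members is loose, and each fold rests on 7 to 18 fragments.

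By role, TRF2 peaks in both libraries were counted at 6 of 8 sensors and checkpoint kinases, 3 of 5 chromatin mediators, 4 of 5 end joining genes and 3 of 7 genes of homologous recombination and the helicases. They were counted at 1 of 2 Fanconi anaemia genes, 3 of 5 genes of single-strand break and base excision repair, all 4 nucleotide excision genes and Msh6. No role lacked them, and the groups are too small to rank. The 7 genes with no TRF2 peak in either library were Atr, Rad50, Rnf168, Rif1, Xrcc5, Brca2 and Parp1, the main polymerase of poly(ADP-ribose). A peak in 1 library was found at 5 genes: Rad52 in replicate 1 with a fold of 5.51, and in replicate 2 Exo1 with 3.97, Fancd2 with 4.19, Lig3 with 5.20 and Blm, the helicase of Bloom syndrome, with 9.21. The peak of Exo1 rested on 5 fragments. Of the Ku genes Xrcc6 had peaks in both libraries and Xrcc5 in neither. However, the TRF2 summits at Xrcc6 lay 12 and 30 bp from a start of Desi1. They lay 132 and 174 bp from a start inside Xrcc6, away from its outermost start. Atrip had peaks in both and Atr in neither.

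**Figure D3:**
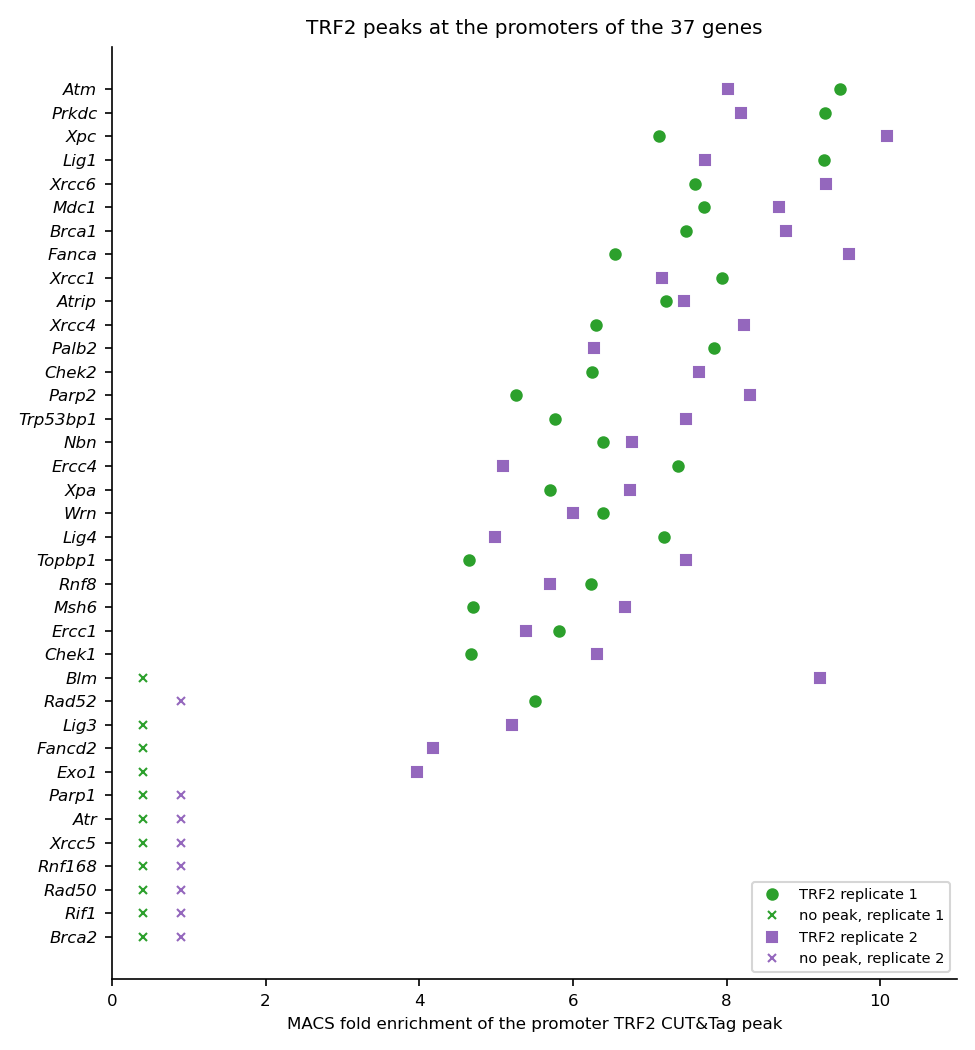
Fold enrichment of the promoter TRF2 CUT&Tag peak (horizontal axis) at the 37 genes (vertical axis, sorted by the number of libraries with a peak and by mean fold), with circles for replicate 1 and squares for replicate 2 and crosses at the left where a library had no peak. The 25 genes at the top have both points, between 4.65 and 10.1, and the 7 at the bottom have crosses for both libraries.

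The share with TRF2 peaks followed accessibility. When the 14180 coding genes were divided into 5 bins of equal size by mean Control ATAC rank, TRF2 peaks in both libraries were found in 5.36% of the lowest bin and in 17.8%, 35.2%, 54.1% and 80.8% of the next ones. No member fell in the lowest bin. In the next bins the members had TRF2 peaks in 3 of 9 (33.3%), 4 of 8 (50%), 10 of 11 (90.9%) and 8 of 9 (88.9%) genes. The members thus lay above the coding genes of the same bin in each of these 4, on 8 to 11 genes apiece. Over the 25 genes with both peaks, the mean Control ATAC rank and the mean TRF2 fold had a Spearman correlation of 0.61, where both measures come from cut DNA at the same promoters and may share base composition. The promoters without TRF2 peaks were not closed, since their mean Control ranks ran from 84.3 for Brca2 to 92.2 for Parp1. All 26 TRF2 peaks of members in replicate 1 and all 29 in replicate 2 overlapped an ATAC peak of Control replicate 1, as did 98.6% and 97.7% of the promoter TRF2 peaks of coding genes.

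**Figure D4:**
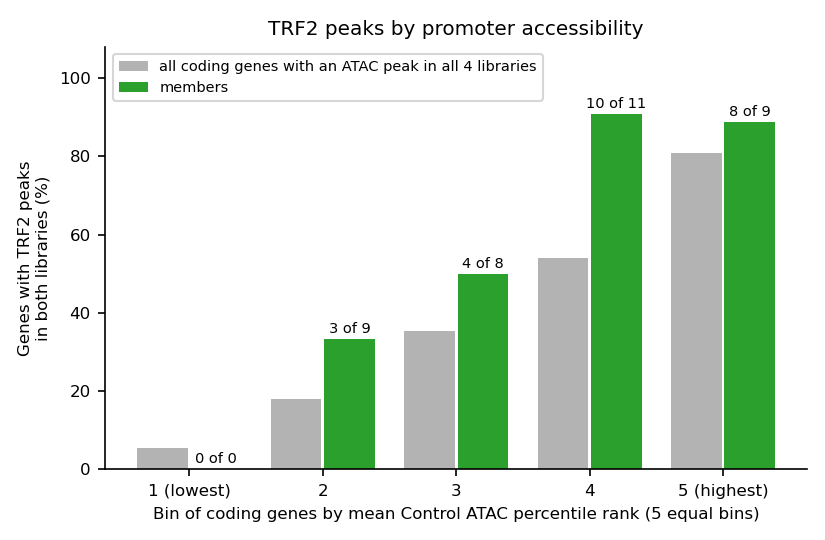
Percentage of genes with a promoter TRF2 peak in both libraries (vertical axis) in 5 equal bins of the coding genes by mean Control ATAC rank (horizontal axis, lowest at the left), for all coding genes (grey) and for the members (green, with counts above the bars). The grey bars rise from left to right to 80.8%, the green bars reach 90.9% and 88.9% in the last pair of bins, and the members have no gene in the lowest bin.

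Between genotypes, members with and without TRF2 peaks had similar medians. The median TRF2KO minus Control difference was 0.03 on the log2 scale for the 25 genes with TRF2 peaks in both libraries, 0.04 for the 5 with a peak in 1, and -0.01 for the 7 with none. The corresponding medians over coding genes were 0.04, 0.01 and -0.04. Within the 25 members with TRF2 peaks in both libraries the differences ran from -0.16 for Chek1 to 0.25 for Ercc4, and none was called by limma.

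Many of these genes share their promoter with a neighbour, which limits what a peak can be assigned to. A start of another coding gene on the opposite strand lay within 1 kb at 15 of the 37 genes (40.5%), against 12.3% of all coding genes and 18.2% of those open in all 4 libraries. These pairs, with the distance between the nearest starts, were Atm and Npat (307 bp), Topbp1 and 1300017J02Rik (133 bp), Chek2 and Hscb (202 bp), Prkdc and Mcm4 (466 bp), Xrcc4 and Tmem167 (41 bp), Xrcc6 and Desi1 (144 bp), Lig4 and Abhd13 (21 bp), and Brca1 and Nbr1 (194 bp). The others were Palb2 and Dctn5 (56 bp), Wrn and Purg (798 bp), Fancd2 and Emc3 (30 bp), Parp2 and Ccnb1ip1 (109 bp), Xrcc1 and Pinlyp (171 bp), Lig1 and Zswim9 (105 bp), and Xpc and Lsm3 (40 bp). TRF2 peaks in both libraries were found at 14 of these 15 genes (93.3%), all but Fancd2, and at 11 of the 22 others (50%). Over the open coding genes the shares were 54.3% and 35.2%.

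In 7 genes the ATAC summit lay nearer the start of another coding gene than any start of the member in all 4 libraries: Atm, Atrip, Brca1, Fancd2, Parp2, Prkdc and Xpc. The ATAC summit assigned to Atm was 131 to 137 bp from the start of Npat, a regulator of histone gene transcription, and 170 to 176 bp from that of Atm. The summit assigned to Prkdc was 82 bp from the start of Mcm4, a subunit of the replicative helicase, and 384 bp from that of Prkdc. The summit assigned to Brca1 was 81 to 101 bp from a start of Nbr1, an autophagy receptor, and 780 to 800 bp from a start of Brca1. The TRF2 summits lay nearer another coding start in both libraries at 6 genes, Atm, Brca1, Lig1, Parp2, Xrcc4 and Xrcc6. Signal at such a promoter cannot be assigned to 1 gene of the pair. Atrip lies on the same strand as Trex1, and its strongest window peak had its summit 110 to 122 bp from a start of Trex1. A separate ATAC peak at the start of Atrip had folds of 62.8 and 52.2 in Control and 66.3 and 58.1 in TRF2KO, which overlap. In Lig4, which has starts in 2 separate ATAC peaks of Control replicate 1, the TRF2 peaks of the replicates lay at different starts and did not overlap, so 24 of the 25 genes had TRF2 peaks that overlapped each other.

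The sequences before the starts were searched on both strands of GRCm38, from 250 bp before to 50 bp after each gene's outermost start. A window can lie away from the peaks of its gene, which were taken at any start. The TRF2 summits of replicates 1 and 2 lay 28402 and 28360 bp from the outermost start at Xrcc6. At Lig1 they lay 1393 and 1433 bp from it. The words were TTTCCCGC, TTTGGCGC, TTTCGCGC and TTTGCCGC for E2F, GCATGCGC for the core of NRF1, CCGGAAGT for ETS, CCAAT for NF-Y, GGGCGG for the GC box of SP factors, TGACGTCA for the CRE, CACGTG for the E-box, TTAGGG for the telomeric unit and TATAAA for the TATA box. A match is a description of letters and not a site. GC boxes can lie inside G-quadruplex motifs. An E2F word, the motif of a family of cell cycle regulators, was found in 8 of the 37 windows (21.6%), against 2.79% of all coding genes and 3.88% of those open in all 4 libraries. These were Topbp1, Chek2, Mdc1, Prkdc, Brca2, Wrn, Fancd2 and Msh6. The NRF1 core was found in 7 windows (18.9%; Atm, Prkdc, Xrcc5, Lig4, Parp2, Lig1 and Xpa), against 3.71% and 4.74%. The ETS word was found in 5 (13.5%; Rnf168, Lig4, Palb2, Exo1 and Fancd2), against 4.70% and 6.78%. The E-box had 6 windows (16.2%, against 7.75% and 9.85%), the GC box 23 (62.2%, against 43.0% and 59.4%), NF-Y 15 (40.5%, against 39.0% and 37.9%) and the CRE 1 (2.70%, Brca2, against 2.43% and 3.27%). The TATA word was found in 1 window (Brca2), against 12.6% of all coding genes. Median GC content was 58.7% for the members, 55.0% for all and 59.7% for open coding genes, and the median ratio of observed to expected CpG was 0.894, 0.524 and 0.722.

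Motifs tied to TRF2 were searched in the same windows. The telomeric unit was found in 3 of the 37 windows (8.11%; Trp53bp1, Parp2 and Ercc1), against 11.4% of all and 11.1% of open coding genes. A G-quadruplex motif, here 4 runs of G, each 3 or longer, separated by 1 to 7 bases, was found in 6 windows (16.2%), among them those of Atr, Wrn, Parp1, Ercc1 and Msh6, against 20.8% and 27.2%. It stood in the windows of 3 of the 25 genes with TRF2 peaks in both libraries and of 3 of the 7 genes without one. Open coding genes had 27.8% and 26.9%. At members such as Xrcc6, Lig1 and Atm the window held neither TRF2 summit. Atr and Parp1 had the motif and no TRF2 peak, and Mdc1 had TRF2 peaks and no such motif in this window. Atm had no such motif in the window either, but its TRF2 summits lay 270 and 396 bp before the start. The whole ATAC peak of Atm in Control replicate 1 held the motif. Within 100 bp of the TRF2 summits of the members, the telomeric unit was found at 2 of 26 peaks in replicate 1 (7.69%) and 1 of 29 in replicate 2 (3.45%), against 6.53% and 5.77% for coding promoters. G-quadruplex motifs were found at 2 of 26 and 2 of 29 (7.69% and 6.90%), against 21.2% and 21.3%. The count depends on the window: within 500 bp on each side of the start 13 of the 37 genes had the motif, against 43.2% of coding genes, and in the whole ATAC peak of Control replicate 1 19 did, against 60.5%. For the G-quadruplex motif, the share of the members was the lower one in each of these windows.

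**Figure D5:**
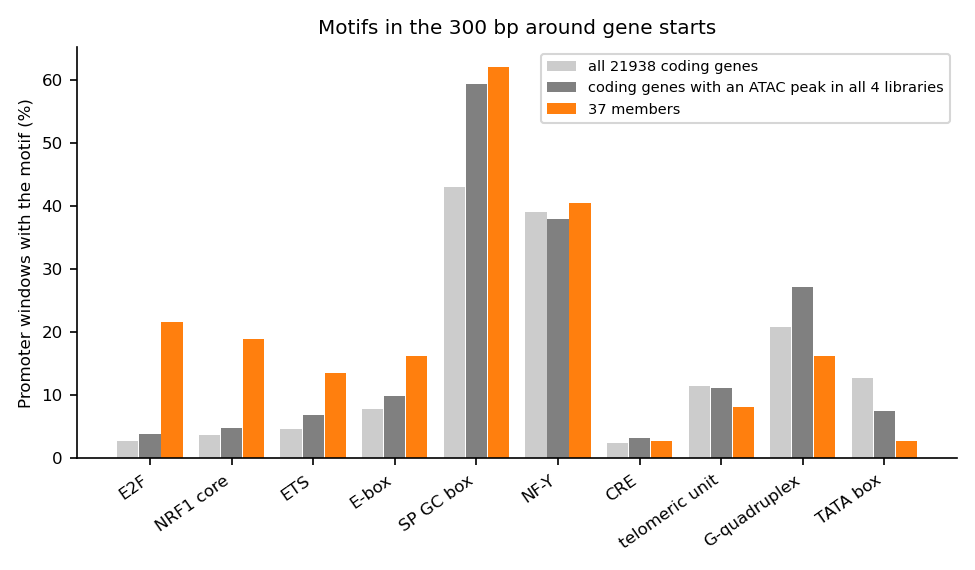
Percentage of promoter windows (vertical axis, 250 bp before to 50 bp after the gene start) that hold each motif (horizontal axis), for all coding genes (light grey), coding genes with an ATAC peak in all 4 libraries (dark grey) and the 37 members (orange). The members stand above both grey bars for E2F (21.6%), NRF1 (18.9%), ETS (13.5%) and the E-box (16.2%), and below both for the telomeric unit (8.11%) and the G-quadruplex motif (16.2%).

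Beyond the promoters, 86 ATAC regions overlapped the 37 genes or their start windows, and 56 of them (65.1%) had a peak in all 4 libraries, against 51.1% over all coding genes. A region with a peak in both Control libraries and in neither TRF2KO library was found in 4 genes (10.8%), against 11.2% of coding genes. The reverse was found in 0 of the 37, against 3.28%. All 4 regions were intronic and low. That of Trp53bp1, at chr2:121241907-121242599, had folds of 5.52 and 4.50 in Control. That of Rad52, at chr6:119907661-119908089, had 4.83 and 6.48, that of Xrcc4, at chr13:89776605-89776946, 6.21 and 6.30, and that of Chek2, at chr5:110854988-110855496, 4.83 and 4.14. GoPeaks or SEACR had a region in a TRF2KO library at those of Chek2 and Xrcc4. Thus 2 genes, Trp53bp1 and Rad52, lacked a region in TRF2KO by all 3 callers (5.41%). By the same rule 1515 of the 21938 coding genes had a Control-specific region, and 8.2% had a region specific to either genotype.

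Further genes of the pathway were counted in the same way. Of 107 other DNA damage response genes listed, 106 were in the annotation, and all 106 had a promoter ATAC peak in the 4 libraries. By rank 33 of them were lower (31.1%) and 10 higher (9.43%) in both TRF2KO libraries, near the 29.6% and 9.06% of coding genes. By centred log2 fold 20 were lower (18.9%) and 35 higher (33.0%), against 21.6% and 25.3% of coding genes. By limma 1 of the 106 was called lower and 2 higher, where 1.17% and 0.409% of coding genes were. The share called higher was thus above that of coding genes, on 2 genes. An unadjusted p below 0.05 in limma was found for 7 (6.60%) lower and 9 (8.49%) higher, where 7.81% and 7.72% of coding genes had one. Their median difference was 0.03 on the log2 scale. TRF2 peaks in both libraries were found at 58 of the 106 (54.7%), against 25.1% of all and 38.7% of open coding genes. An IgG peak was found at 0, against 0.123% of coding genes. The 37 members and these 106 genes were thus alike in having open promoters throughout, against 64.6% of coding genes, and TRF2 peaks at more than 50% of promoters. Few or no genes of either set were called between genotypes, and few coding genes were called as well.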

How the data were processed

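CUT&Tag and ATAC-seq of isolated MuSCs were analysed from the deposited peak lists of 7 libraries, grouped by their titles. Per the labels and the methods of the study, reads were aligned to mm10 (GRCm38) with Bowtie2 (versions 2.4.4 and 2.5.4 in the submitters' notes), duplicates were removed with Picard, and peaks were called for each library with MACS3 (3.0.0 for CUT&Tag, 3.0.2 for ATAC-seq), SEACR and GoPeaks. Settings of MACS, a shift of ATAC reads and the use of IgG in calling are not given in the sources used here. The fold enrichment of each summit was deposited by the authors as MACS wrote it, and is a ratio to the background of the library, which was constant within each ATAC list. The -log10 p and -log10 q values were likewise deposited by the authors. Fragments at a summit were recovered from the deposited fold and -log10 p of a peak. Read totals were not given, so depth is described by peak numbers and these fragments.

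Promoter windows came from GENCODE M21. The promoter sequence of 1 member is not reported here. Genes with a peak in all 4 ATAC libraries entered limma 3.58.1 (R 4.3.3; eBayes with trend) on log2 fold, centred on library medians, with Benjamini-Hochberg adjustment over all 14180 genes at 0.05. No further pseudocount was added to the deposited folds. The consensus lists were assumed to pool the 2 libraries of each genotype, and their score was not used. Alternatives were other windows, thresholds, callers, scalings, the replicate block and leaving out each library. Per-library values are given for the 5 members with the largest fall and the 5 with the largest rise in mean rank, for Atm and Trp53bp1, for members with genotype-specific regions, and, for TRF2, for the 8 with the highest lower fold. The ATAC folds of Chek2, Mdc1, Prkdc, Brca1 and Lig4 were added after their values were seen. The same holds for the peak at the start of Atrip and the weaker window peaks of Blm, Xrcc1 and Ercc1. Members, roles and lists were chosen with earlier results of these data known.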

Additional observations from a re-analysis of the deposited data

How the results depend on the processing

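Of 83 alternatives over 9 results, 66 left the result within 1.5 times its count or within its spread. Ranking among promoter peaks gave 5 members higher in TRF2KO in place of 3, and centred log2 fold, chosen after seeing the data, gave 10 higher and 4 lower in place of 10 lower. A -log10 q of at least 5 left 15 members with TRF2 peaks in both libraries in place of 25. Requiring no GoPeaks or SEACR region in the other genotype left 2 members with a genotype-specific region in place of 4 (5.41%, against 8.2% of coding genes), and adding 10 kb on each side of the gene gave 7 (18.9%, against 19.1%). A 3 kb window gave 1 member called lower by limma in place of 0 (Exo1). The G-quadruplex count of 6 became 13 within 500 bp of the start and 19 in the ATAC peak, as longer windows hold more matches. Without centring the median difference was 0.121 in place of 0.0242. With 1 ATAC library left out, which loosens the criterion by construction, 13 to 21 members were lower by rank and 4 to 14 higher, the extremes coming without Control replicate 1 (21 lower, 56.8% against 67.3% of coding genes, and 4 higher, 10.8% against 11.3%) and without Control replicate 2 (13 lower, 35.1% against 33.1%, and 14 higher, 37.8% against 41.9%). Without TRF2KO replicate 1 there were 17 lower (45.1% of coding genes) and 8 higher (16.6%), and without TRF2KO replicate 2 15 lower (40.4%) and 8 higher (21.5%). Leaving out a library gave 0 to 1 members called lower by limma, with the 1 call (Exo1) made without TRF2KO replicate 2.

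Libraries with the same number did not deviate together (correlation of deviations -0.0456 over 14180 genes), so the numbers are not taken as pairs. With the replicate number as a block, limma called 1 member lower (Exo1) and 0 higher, and the median difference was 0.0242.

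TRF2 peaks rest on few fragments, so a promoter without one is a promoter where TRF2 was not detectable at this depth.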
